A study of Mus musculus with 6 samples.

Results

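Integrins and laminins are the receptors and the ligands that fix cells to basement membranes. The genes were taken by symbol, as all integrin alpha (Itga) and beta (Itgb) subunit genes and all laminin alpha (Lama), beta (Lamb) and gamma (Lamc) chain genes, without genes of integrin-binding partners. This gave 37 of 55363 gene symbols: 18 integrin alpha subunits, 8 integrin beta subunits and 11 laminin chains. They were compared between whole oviducts of pregnant mice labelled Mettl3 f/f (3 libraries) and Mettl3 d/d (3 libraries). Females aged 6 to 8 weeks were mated with fertile males, the day of the vaginal plug counted as day 1, and tissue was taken on gestational day 3 in both groups. Mettl3 encodes the catalytic subunit of the enzyme that adds methyl groups to adenosines of RNA, the mark m6A (N6-methyladenosine). The f/f label usually stands for an allele between loxP sites and d/d for the allele after Cre has removed that stretch. Not given in the sources used here are the Cre driver, the exons removed, the strain and any pooling of animals.

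A laminin is a trimer of 1 alpha, 1 beta and 1 gamma chain. Many laminins are cross-shaped and polymerize into the sheet of a basement membrane, and the alpha chain carries the main site for cell receptors. An integrin is a pair of 1 alpha and 1 beta subunit that spans the cell membrane, holds matrix or another cell outside and links to actin or keratin filaments inside. In the oviduct, basement membranes underlie the ciliated and secretory epithelium and surround smooth muscle cells and vessels, while the integrins with the beta2 subunit are carried by leukocytes.

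The steps of the lowest values implied 16700000 to 17800000 fragments per library. Mettl3 was at 11.8, 12.1 and 13.2 FPKM (fragments scaled to transcript length and to all mapped fragments) across f/f libraries 1 to 3, against 19.8, 20.3 and 24.5 across d/d libraries 1 to 3 (library numbers are the labels' replicate numbers). Mettl3 was thus higher in the libraries labelled d/d, a level per gene cannot show a missing exon, and every direction below rests on the labels. The oviduct labels were met by their defining markers: the oviductal glycoprotein gene Ovgp1 was at 2651 to 5690.3 FPKM over the 6 libraries. f/f library 1 stood apart from the other f/f libraries: its 7 smooth muscle markers summed to 2008 FPKM against 4606 and 4757, and Hoxa10 and Hoxa11, genes of the uterine end of the tract, to 3.68 against 27.6 and 25.9. Its 6 multiciliated markers summed to 250.01 FPKM against 119.8 and 74.6. f/f library 3 had 21.3 FPKM of 4 ovary markers, mostly Cyp11a1 (13.5), against 3.33 and 3.35 in f/f libraries 1 and 2. Across d/d libraries 1 to 3 the smooth muscle markers summed to 4052, 2506 and 3262 FPKM, and Hoxa10 and Hoxa11 to 4.24, 10.1 and 13.2. In d/d library 1 the multiciliated markers summed to 25.00 FPKM, against 124 and 80.97 in d/d libraries 2 and 3. Where an integrin or laminin gene named below changes its call without such a library, both results are given.

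Few single integrin or laminin genes passed the test, and those that did were laminin chains and a laminin receptor. Lama1 and Lama2 fell and Itga6 rose in the libraries labelled d/d. Of the 37 genes, 33 had a mean of at least 1 FPKM over the 6 libraries and were tested with limma on log2(FPKM + 1), with Benjamini-Hochberg adjusted p under 0.05 over all features as the threshold. Log2 changes are on that scale, which understates the change of low genes, and folds are ratios of group mean FPKM. The 3 that passed are 9.09% of those tested, where 11% of all 15438 features tested passed, a similar share. By direction, 1 rose, where 6.04% of all features rose, and 2 fell, where 4.97% of all features fell. The f/f and d/d values did not overlap in 13 of the 33 (39.4%), against 35.6% of all features: 8 had d/d above f/f (18.1% of all features) and 5 had d/d below (17.4%). The median log2 change of the 33 was 0.041, against -0.011 over all features. Itga2 passed the filter through its d/d values, with mean FPKM of 0.718 for f/f and 1.54 for d/d. In bulk tissue, fewer cells of a type and less RNA per cell cannot be told apart.

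**Figure D1:**
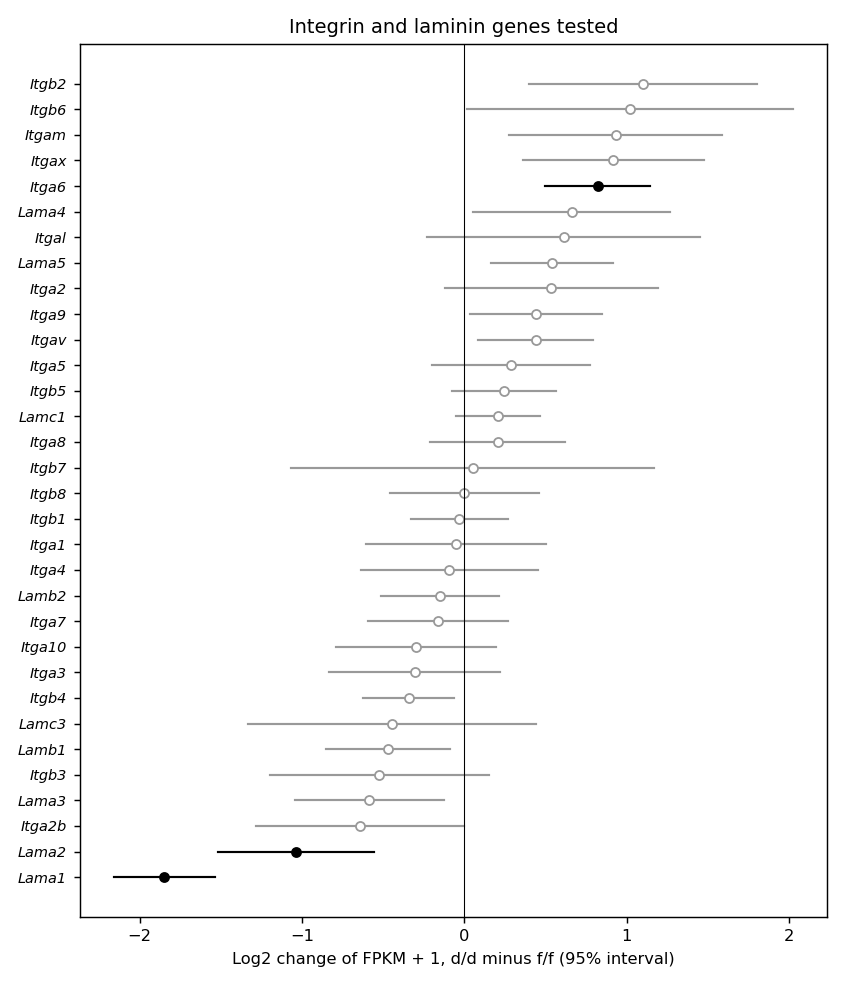
Log2 change of FPKM + 1 (x axis, d/d minus f/f, 3 libraries each) of 32 of the 33 integrin and laminin genes tested, with 95% intervals from the limma fit and filled black points for genes past the threshold. Lama1 (-1.85) and Lama2 (-1.04) lie farthest left, and Itga6 (0.82) is the only filled point on the right, below 4 open points with wider intervals.

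Among the laminin alpha chains, Lama1 fell most. Lama1 (ENSMUSG00000032796; chr17:67697259-67822647, plus strand, GRCm38) encodes the alpha1 chain, typical of embryonic and some epithelial basement membranes. It was at 10.5, 10.5 and 12.2 FPKM across f/f libraries 1 to 3, against 2.23, 2.40 and 2.40 across d/d libraries 1 to 3. The 3 d/d values lay within a narrow range and all were far below the lowest f/f value. The level was 4.72-fold lower in d/d, with a mean FPKM of 11.1 ± 0.990 for f/f, against 2.34 ± 0.0954 for d/d (n = 3 each, ± SD; log2 change -1.85, SE 0.13, limma adjusted p = 0.00267). Lama1 passed without each library in turn, with adjusted p from 0.00327 to 0.0255.

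Lama2 (ENSMUSG00000019899; chr10:26980036-27619758, minus strand) encodes the alpha2 chain, the laminin of muscle and peripheral nerve. It was at 31.4, 26.00 and 30.2 FPKM across f/f libraries 1 to 3, against 9.81, 16.7 and 15.5 across d/d libraries 1 to 3. The groups did not overlap, and d/d library 1 was the lowest library. Lama2 was 2.08-fold lower in d/d (log2 change -1.04, SE 0.20, limma adjusted p = 0.0252). Lama2 lost its call without f/f library 2 (adjusted p = 0.0720), f/f library 3 (0.0836) or d/d library 3 (0.0599), while the log2 change stayed between -1.17 and -0.81 over the 6 fits with a library left out. Of cells that make this chain, smooth muscle had 1 of 7 markers lower (the intermediate filament gene Des, 2.57-fold) and summed marker levels of 2008 to 4757 FPKM over the f/f and 2506 to 4052 over the d/d libraries. Fibroblast markers summed to 2407 to 2811 FPKM over the f/f and 2293 to 3492 over the d/d libraries, with Pdgfra lower (1.87-fold) and Lum higher (1.74-fold) among 6, and 1 Schwann cell marker of 3 was tested and did not pass, with sums of 4.59 to 6.96 FPKM over the f/f and 2.57 to 4.11 over the d/d libraries. Their part in the result was not tested.

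The other alpha chains did not pass. Lama3, whose chain belongs to the laminin of epithelial anchoring sites, was at 12.7, 8.52 and 9.38 FPKM across f/f libraries 1 to 3, against 7.14, 7.11 and 5.08 across d/d libraries 1 to 3. The d/d libraries were all below the f/f libraries, and the difference was a log2 change of -0.58 (SE 0.19, limma adjusted p = 0.1005). Lama5, the alpha5 chain found widely in adult epithelial basement membranes, was at 42.2, 29.4 and 29.8 FPKM across f/f libraries 1 to 3, against 49.1, 45.2 and 52.4 across d/d libraries 1 to 3. The groups did not overlap, and f/f library 1 was the f/f library nearest to d/d. It had a log2 change of 0.54 (SE 0.16, limma adjusted p = 0.0753), and Lama5 passed without f/f library 1 (log2 change 0.70, adjusted p = 0.0150). Lama4, the alpha4 chain of vessel walls, was at 22.1, 36.1 and 33.9 FPKM across f/f libraries 1 to 3, against 53.2, 34.9 and 59.8 across d/d libraries 1 to 3. The groups overlapped through d/d library 2 (log2 change 0.66, limma adjusted p = 0.143). The 6 endothelial markers, of which 0 passed with limma and 0 had an unadjusted p under 0.05, summed to 142 to 189 FPKM over the f/f and 146 to 223 over the d/d libraries.

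Each of the 5 alpha chains had a share of the summed alpha level that did not overlap between groups, while the sum itself overlapped. None of these shares passed after adjustment. FPKM is scaled to transcript length, so levels of different chains can be added. The summed laminin alpha level was 115 ± 4.23 FPKM for f/f and 121 ± 14.5 for d/d (n = 3 each, ± SD; two-sided exact permutation p = 0.600). Of this sum Lama1, Lama2 and Lama3 together held 45.95%, 40.7% and 44.9% across f/f libraries 1 to 3, against 15.8%, 24.7% and 17.02% across d/d libraries 1 to 3. Every d/d share was below every f/f share. Lama1 alone held 9.64% ± 0.866 for f/f, against 1.96% ± 0.265 for d/d (n = 3 each, ± SD). Lama2 held 25.4% ± 1.58 for f/f, against 11.8% ± 3.84 for d/d (n = 3 each, ± SD). On the other side, Lama5 held 29.3% ± 5.37 for f/f, against 40.6% ± 1.88 for d/d (n = 3 each, ± SD). Lama4 held 26.9% ± 7.37 for f/f, against 40.3% ± 6.47 for d/d (n = 3 each, ± SD). In each of these shares the groups did not overlap, which gives an exact permutation p of 0.1, the smallest that 3 against 3 allows; for Lama4 the nearest libraries were f/f library 2 at 32.7% and d/d library 2 at 32.8%. Of the 44 shares, sums and ratios tested this way, 20 were at a permutation p of 0.1, and the smallest Benjamini-Hochberg adjusted p was 0.220. Shares of 1 sum are tied to each other, so these separations are not independent. The sum of the first 3 chains was chosen after their values were seen. As each of these 3 shares was lower in every d/d library, their sum had to be lower too. All 5 alpha chains had an unadjusted limma p under 0.05, where 29.6% of all features had one.

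**Figure D2:**
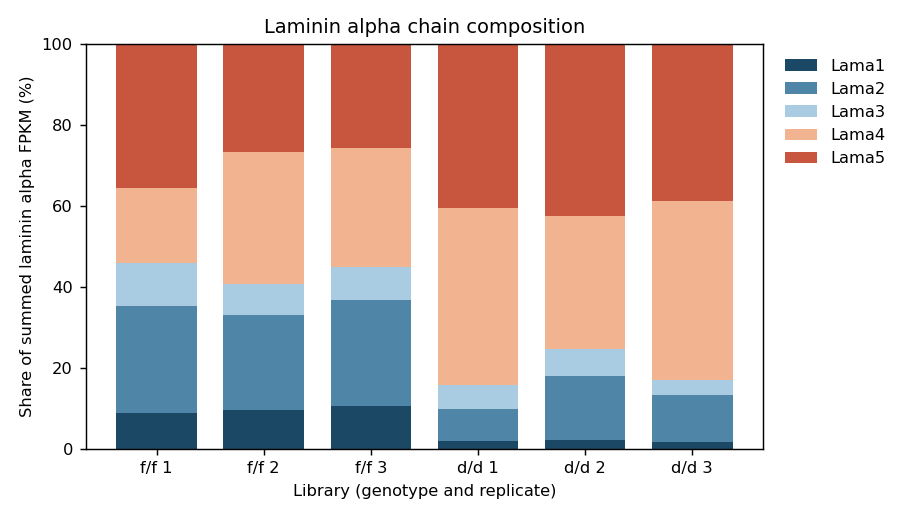
Share of the summed laminin alpha FPKM (y axis, percent) held by each of the 5 alpha chains in each library (x axis), with bars stacked to 100 percent. The 3 blue segments (Lama1, Lama2 and Lama3) together reach 40.7% to 45.95% in the f/f libraries and 15.8% to 24.7% in the d/d libraries.

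The sequence just before the start site is shown for Lama2, lower in d/d, and for Lama5, whose d/d values all lay above f/f, the 2 alpha chains among the 23 of 37 genes with an entry in the RefSeq promoter table (GRCm38.p6). Each run is the 250 bases before the annotated start, read 5′ to 3′ on the gene's strand. Capitals mark matches, on either strand, to the hexamers GGGCGG (the GC box), AGAACA (part of the element bound by progesterone and glucocorticoid receptors) and GAGGAA (a purine-rich core bound by ETS-family factors), and TATAAA and CCAAT were also searched. The Lama2 window is chr10:27616943-27617192 on the minus strand, inside the GENCODE span of Lama2 in an intron and overlapping no exon, and the Lama5 window chr2:180225860-180226109 on the minus strand, directly before the GENCODE start of Lama5 and overlapping no exon.
Lama2: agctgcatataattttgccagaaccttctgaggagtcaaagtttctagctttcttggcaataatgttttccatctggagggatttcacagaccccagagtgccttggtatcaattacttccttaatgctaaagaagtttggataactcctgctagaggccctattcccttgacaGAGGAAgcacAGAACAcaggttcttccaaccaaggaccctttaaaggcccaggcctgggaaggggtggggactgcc
Lama5: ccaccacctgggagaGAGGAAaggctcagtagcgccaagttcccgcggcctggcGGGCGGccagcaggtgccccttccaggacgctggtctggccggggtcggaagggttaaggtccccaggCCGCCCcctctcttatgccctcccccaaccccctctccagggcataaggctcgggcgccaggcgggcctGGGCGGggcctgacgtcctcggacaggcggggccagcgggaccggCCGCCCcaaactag
The Lama5 window held 4 matches to GGGCGG and 1 to GAGGAA, and was 72.4% G and C. The Lama2 window held 1 match to AGAACA, 1 to GAGGAA and 0 to GGGCGG, and was 47.2% G and C, where the median promoter was at 52.4%. Of all 32851 promoters in the table, 32.7% held GGGCGG, 16.1% AGAACA, 23.3% GAGGAA, 33.8% CCAAT and 12.4% TATAAA in this window. These matches are letters in a window and show no binding.

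The beta and gamma chains had no member past the threshold. Of 5 tested, 0 passed with limma and 1 (Lamb1) had an unadjusted p under 0.05, where 11% and 29.6% of all features did. Lamb1, the beta1 chain, was at 23.9, 25.8 and 32.3 FPKM across f/f libraries 1 to 3, against 16.1, 21.9 and 20.4 across d/d libraries 1 to 3. Each d/d level was below each f/f level (log2 change -0.47, limma adjusted p = 0.110). Lamc1, the gamma1 chain shared by most laminins, had the highest laminin mean over the 6 libraries, with Lamb2 above it in f/f libraries 2 and 3 and d/d library 1. Lamc1 was at 72.2, 71.8 and 69.6 FPKM across f/f libraries 1 to 3, against 78.1, 76.6 and 93.8 across d/d libraries 1 to 3. Every d/d library lay above every f/f library, by less than the test's error allowed (log2 change 0.21, limma adjusted p = 0.249, 95% interval from -0.048 to 0.47). Lamb2, the beta2 chain of muscle and vessel laminins, had a mean FPKM of 74.02 ± 8.68 for f/f, against 67.03 ± 11.4 for d/d (n = 3 each, ± SD), with overlapping groups and a 95% interval of the log2 change from -0.51 to 0.22. Lamb3 was below the filter, at 0.504 to 1.76 FPKM over the 6 libraries.

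Lamc3, the gamma3 chain, turned on 1 library. It was at 4.49, 13.2 and 13.3 FPKM across f/f libraries 1 to 3, against 6.80, 5.76 and 7.35 across d/d libraries 1 to 3. f/f library 1 was below all d/d libraries while f/f libraries 2 and 3 were above them (log2 change -0.45, limma adjusted p = 0.464). Without f/f library 1 it was lower in d/d (log2 change -0.90, adjusted p = 0.0168). That library also had the low smooth muscle and uterine-end markers given above. In the d/d libraries these markers summed to 2506 to 4052 and 4.24 to 13.2 FPKM, all below f/f libraries 2 and 3. Without f/f library 1 both marker sums thus separated the groups as well, and their part in this value was not tested.

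**Figure D3:**
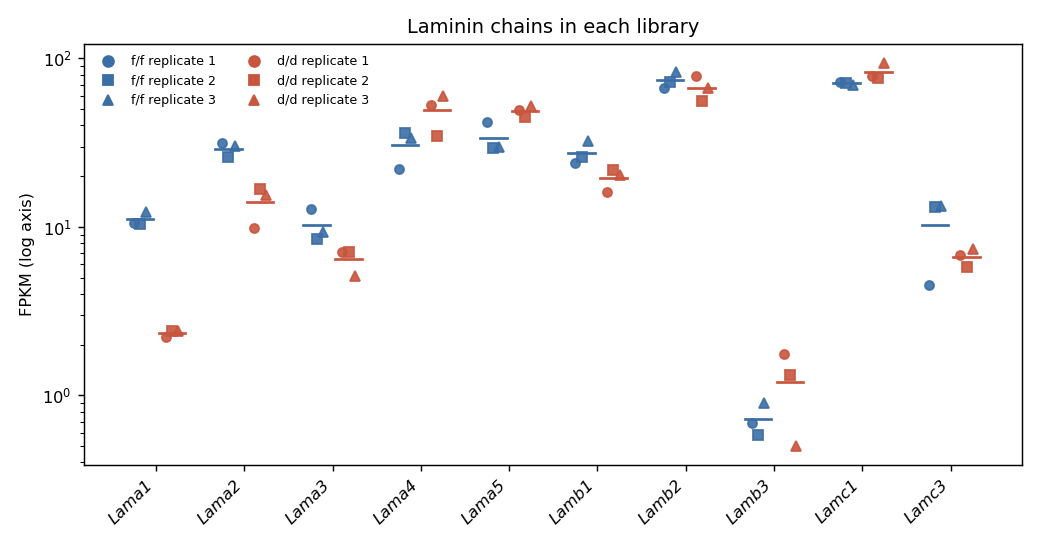
FPKM (y axis, log scale) of 10 of the 11 laminin chain genes (x axis) in the 3 f/f (blue) and 3 d/d (red) libraries, with symbols for replicates and lines for group means. The d/d points of Lama1, Lama2, Lama3 and Lamb1 all lie below the f/f points, those of Lama5 and Lamc1 all above, and f/f library 1 of Lamc3 (4.49 FPKM) lies apart from the other f/f libraries.

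Of the integrins that bind laminin, Itga6 rose. Itga6 (ENSMUSG00000027111; chr2:71745616-71858416, plus strand) encodes the alpha6 subunit, which pairs with beta1 or beta4 and marks the basal side of epithelia and many endothelia. It was at 42.2, 36.8 and 38.6 FPKM across f/f libraries 1 to 3, against 67.2, 83.3 and 61.2 across d/d libraries 1 to 3. The d/d libraries were all above the f/f libraries. The level was 1.80-fold higher in d/d, with a mean FPKM of 39.2 ± 2.78 for f/f, against 70.6 ± 11.4 for d/d (n = 3 each, ± SD; log2 change 0.82, SE 0.14, limma adjusted p = 0.0156). Itga6 lost its call without f/f library 2 (adjusted p = 0.0704) or f/f library 3 (0.0605), with log2 changes of 0.78 and 0.81. Beside it, the epithelial marker Epcam rose 1.52-fold and Krt18 fell 1.46-fold. Krt8 and Cldn3 lay lower in every d/d library without passing (limma adjusted p = 0.181 and 0.0716), and Cldn4 and Cldn7 overlapped between groups. The 6 epithelial markers summed to 701 to 888 FPKM over the f/f and 616 to 672 over the d/d libraries, without overlap. Their part in the result was not tested.

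Partners of alpha6 and the other laminin-binding alpha subunits missed the threshold. Itgb4, the hemidesmosome subunit that pairs with alpha6 alone, was at 17.3, 18.01 and 20.3 FPKM across f/f libraries 1 to 3, against 15.96, 13.4 and 13.9 across d/d libraries 1 to 3. The groups did not overlap, with d/d below f/f (log2 change -0.34, limma adjusted p = 0.109). The ratio of Itga6 to Itgb4 FPKM was 2.43, 2.04 and 1.90 in f/f libraries 1 to 3 and 4.21, 6.21 and 4.39 in d/d libraries 1 to 3. The pair was chosen after its values were seen. With Itga6 higher and Itgb4 lower in every d/d library, the ratio had to separate. Its exact permutation p of 0.1, the smallest possible, was thus fixed beforehand and adds nothing to the values of the 2 genes. Itga3, the alpha3 subunit of epithelial cells, had a mean FPKM of 19.2 ± 5.14 for f/f, against 15.2 ± 3.07 for d/d (n = 3 each, ± SD). Itga7, the alpha7 subunit of muscle, had a mean FPKM of 10.7 ± 1.82 for f/f, against 9.51 ± 1.83 for d/d (n = 3 each, ± SD). Both overlapped between groups (limma adjusted p = 0.400 and 0.588). Itgb1, which pairs with most alpha subunits in this tissue's cells, was the most abundant of the 37 genes, at 165, 183 and 214 FPKM across f/f libraries 1 to 3, against 193, 182 and 173 across d/d libraries 1 to 3. It overlapped fully between groups, with a log2 change of -0.030 (95% interval from -0.33 to 0.27). Of all integrin beta FPKM it held 56.99% ± 1.13 for f/f, against 53.8% ± 1.19 for d/d (n = 3 each, ± SD), without overlap.

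The transcripts of the 3 genes that passed were read for GGACT, a common DNA-letter form of the sequence in which m6A is placed, on the RNA strand and with T for U. The mark is known to gather near stop codons. For each gene the GENCODE M21 coding transcript with the most bases up to the end of its stop codon was used: Lama1 held 18 matches in 9526 nt, Lama2 6 in 9614 nt and Itga6 3 in 4156 nt. The match nearest to the stop codon, shown in capitals with 10 bases on each side, lay in the coding sequence in all 3.
Lama1: aggaacatcgGGACTatcacccaca
Lama2: gcagagagtgGGACTtactttgatg
Itga6: gcttttcactGGACTcagggaaggg
These are 1.89, 0.624 and 0.722 matches per kb for Lama1, Lama2 and Itga6, where the median of the 33 integrin and laminin genes was 1.19 and that of 13461 tested genes 1.07 (quartiles 0.648 and 1.56). A match within 100 nt of the stop codon was found in 8 of the 33 (24.2%) and in 24.3% of all; Lama1, Lama2 and Itga6 were not among the 8. A match does not show that the base is methylated.

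Of 3 collagen-binding integrins tested, 0 passed in limma and 0 had an unadjusted p under 0.05, where 11% and 29.6% of all features did. Itga1, the alpha1 subunit of smooth muscle and stroma, had a mean FPKM of 9.26 ± 2.48 for f/f, against 8.82 ± 1.85 for d/d (n = 3 each, ± SD). Its groups overlapped (95% interval from -0.60 to 0.50 for the log2 change). Itga10 had a mean FPKM of 2.66 ± 0.537 for f/f, against 1.98 ± 0.426 for d/d (n = 3 each, ± SD), and Itga2 had a mean FPKM of 0.718 ± 0.210 for f/f, against 1.54 ± 0.624 for d/d (n = 3 each, ± SD). Itga11 was below the filter, at 0.926, 0.607 and 0.557 FPKM across f/f libraries 1 to 3, against 0.404, 0.267 and 0.390 across d/d libraries 1 to 3.

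Integrins that recognise the RGD motif of fibronectin, vitronectin and latent TGF-beta had 0 of 7 past the threshold in limma, where 11% of all features passed. An unadjusted p under 0.05 was found for 2 (Itgav and Itgb6), where 29.6% of all features had one. Itgav, the alphaV subunit that pairs with several beta subunits, was at 39.9, 30.2 and 34.1 FPKM across f/f libraries 1 to 3, against 46.1, 54.97 and 41.3 across d/d libraries 1 to 3. Each d/d level was above each f/f level (log2 change 0.44, limma adjusted p = 0.108). Itgb5, an alphaV partner, was next to Itgb1 in abundance among the 37 genes, at a mean FPKM of 83.3 ± 8.59 for f/f, against 99.2 ± 13.7 for d/d (n = 3 each, ± SD; limma adjusted p = 0.272). Itgb6, an epithelial alphaV partner that releases active TGF-beta, was at 1.94, 1.39 and 1.58 FPKM across f/f libraries 1 to 3, against 1.75, 5.07 and 8.12 across d/d libraries 1 to 3. d/d libraries 2 and 3 were above every f/f library and d/d library 1 was within the f/f range. It had a log2 change of 1.02 (limma adjusted p = 0.163), and without d/d library 1 it was 1.503 (adjusted p = 0.0324).

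Itgb3, which pairs with alphaV or with the platelet alphaIIb subunit, was at 12.8, 26.1 and 28.1 FPKM across f/f libraries 1 to 3, against 16.2, 13.98 and 13.2 across d/d libraries 1 to 3. f/f libraries 2 and 3 were above every d/d library and f/f library 1 was below all of them (log2 change -0.52, limma adjusted p = 0.269). Without f/f library 1 it was lower in d/d (log2 change -0.86, adjusted p = 0.0142), the same library on which Lamc3 turned. As for Lamc3, the smooth muscle and uterine-end marker sums then separated the groups too, and their part was not tested. Itga2b, the alphaIIb subunit of platelets and megakaryocytes, was at 7.50, 10.02 and 11.7 FPKM across f/f libraries 1 to 3, against 4.16, 5.25 and 8.76 across d/d libraries 1 to 3. Only d/d library 3 reached the f/f range (log2 change -0.64, limma adjusted p = 0.168). The 5 platelet markers summed to 14.7 to 18.8 FPKM over the f/f and 12.9 to 50.6 over the d/d libraries, nearly all of it Pf4, and Gp1ba, Gp9 and Ppbp were at or below 1.21 FPKM and Treml1 was listed at 0 in all 6 libraries.

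Itga5, the fibronectin receptor subunit, was at 14.4, 23.97 and 24.9 FPKM across f/f libraries 1 to 3, against 25.03, 25.5 and 25.1 across d/d libraries 1 to 3. The d/d values lay close together, just above f/f libraries 2 and 3, and f/f library 1 was far lower (log2 change 0.29, limma adjusted p = 0.392). Itga8, which binds nephronectin, had a mean FPKM of 4.31 ± 0.821 for f/f, against 5.10 ± 0.620 for d/d (n = 3 each, ± SD). Itgb8 had a mean FPKM of 3.37 ± 0.0797 for f/f, against 3.44 ± 0.949 for d/d (n = 3 each, ± SD). Both overlapped between groups. Itga9, a receptor subunit for tenascin and osteopontin, was at 13.2, 9.87 and 9.81 FPKM across f/f libraries 1 to 3, against 14.9, 18.1 and 12.8 across d/d libraries 1 to 3, with overlapping groups (log2 change 0.44, limma adjusted p = 0.146; unadjusted p = 0.0380). Itga4, which pairs with beta1 or beta7 on leukocytes, had a mean FPKM of 2.44 ± 0.249 for f/f, against 2.29 ± 0.840 for d/d (n = 3 each, ± SD), and its log2 change missed the threshold (limma adjusted p = 0.823). The summed integrin alpha level was 176 ± 7.12 FPKM for f/f and 230.2 ± 30.7 for d/d (n = 3 each, ± SD), without overlap (exact permutation p = 0.1, the smallest possible). Of this sum Itga6 held 22.2% ± 0.715 for f/f, against 30.6% ± 1.35 for d/d (n = 3 each, ± SD), without overlap. Itgav held 19.7% ± 1.99 for f/f, against 20.6% ± 0.515 for d/d (n = 3 each, ± SD), with overlap. The summed integrin beta level was 329 ± 36.6 and 339.9 ± 26.5 FPKM (n = 3 each, ± SD; exact permutation p = 0.800).

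**Figure D4:**
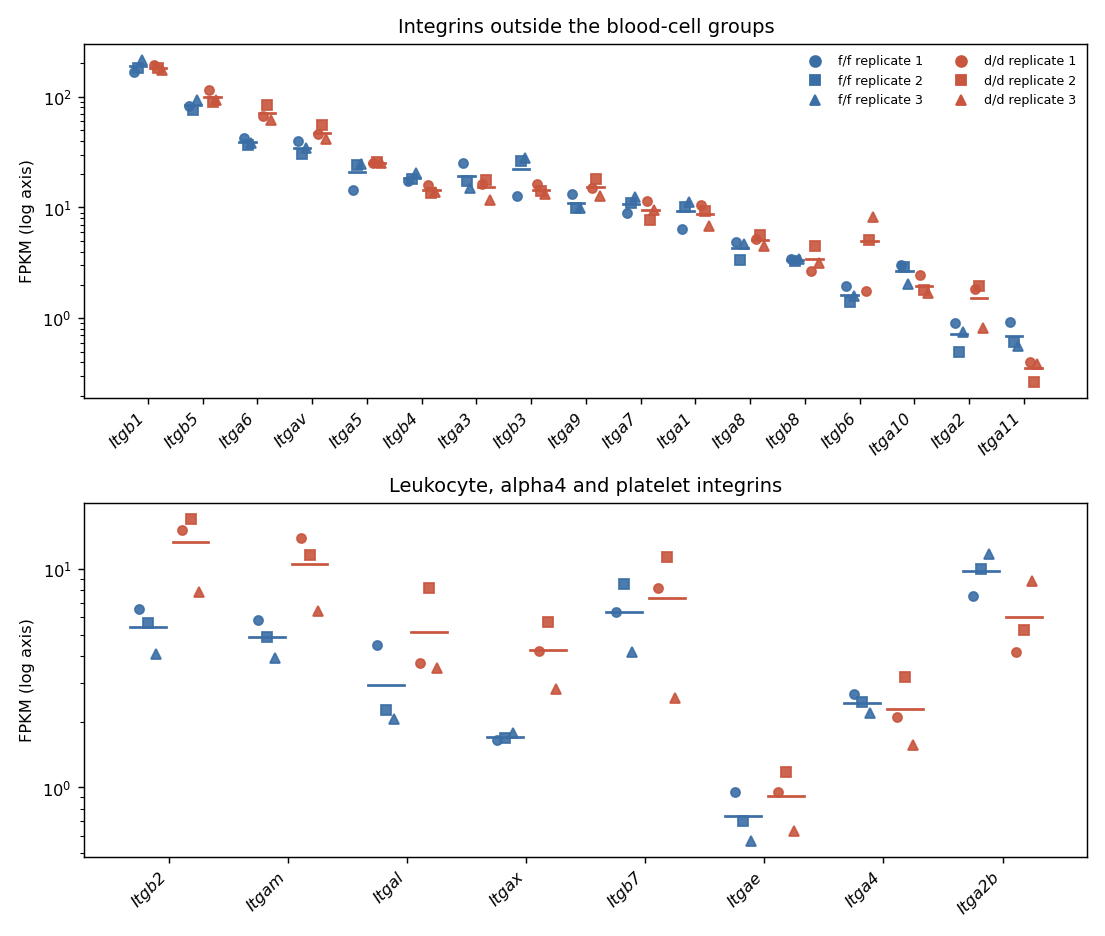
FPKM (y axis, log scale) of 25 integrin genes in the 3 f/f (blue) and 3 d/d (red) libraries, with symbols for replicates and lines for group means; Itgad, at 0 in 4 libraries, is not drawn. In the upper panel the Itga6 d/d points (61.2 to 83.3 FPKM) lie above all f/f points, and in the lower panel the d/d points of Itgb2, Itgam and Itgax do.

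Of 5 leukocyte integrins tested, 0 passed with limma and 3 (Itgb2, Itgam and Itgax) had an unadjusted p under 0.05, where 11% and 29.6% of all features did. In these 3 the d/d values all lay above the f/f values, as in 18.1% of all features, while Itgal and Itgb7 overlapped between groups. Itgb2, the beta2 subunit of the leukocyte integrins, was at 6.58, 5.67 and 4.07 FPKM across f/f libraries 1 to 3, against 15.04, 16.9 and 7.83 across d/d libraries 1 to 3. Every d/d library lay above every f/f library, and d/d library 3 was nearest to f/f. It had a mean FPKM of 5.44 ± 1.27 for f/f, against 13.2 ± 4.77 for d/d (n = 3 each, ± SD), a 2.44-fold difference (log2 change 1.10, SE 0.29, limma adjusted p = 0.0592). Itgam, the alpha subunit of the complement receptor of macrophages and neutrophils, was at 5.86, 4.88 and 3.91 FPKM across f/f libraries 1 to 3, against 13.8, 11.5 and 6.42 across d/d libraries 1 to 3. Itgax, typical of dendritic cells and some macrophages, was at 1.66, 1.69 and 1.78 FPKM across f/f libraries 1 to 3, against 4.22, 5.71 and 2.82 across d/d libraries 1 to 3. In both, all d/d values were again above all f/f values, with d/d library 3 lowest of the d/d libraries (2.17-fold, limma adjusted p = 0.0768, and 2.49-fold, 0.0527). Without d/d library 3 all 3 genes passed (adjusted p = 0.0370, 0.0396 and 0.0479 for Itgb2, Itgam and Itgax). Itgax also passed with a pseudocount of 0.1 (0.0470), with quantile normalization (0.0440) and without the variance trend (0.0456), and Itgb2 with quantile normalization (0.0494). None of the 3 passed under the other scalings, without the filter or with the replicate number as a block. None passed without any other single library, where the limma adjusted p reached 0.158, 0.193 and 0.148 for Itgb2, Itgam and Itgax.

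Macrophage markers were higher in the same libraries. Of 10 tested, 9 rose and 0 fell, where 11% of all features passed. Their summed level was 351 to 452 FPKM over the f/f and 959 to 1287 over the d/d libraries. Mertk did not pass, with mean FPKM of 7.95 for f/f and 5.71 for d/d. Neutrophil markers summed to 14.9 to 94.6 FPKM over the f/f and 33.6 to 108 over the d/d libraries, with 1 of 6 tested (Csf3r) higher and f/f library 1 above the other f/f libraries. T and NK cell markers summed to 8.93 to 11.6 FPKM over the f/f and 11.4 to 21.6 over the d/d libraries with 0 of 4 passing in limma and 1 at an unadjusted p under 0.05. Dendritic cell markers summed to 14.6 to 18.3 FPKM over the f/f and 7.92 to 11.3 over the d/d libraries. Of 3 tested, 1 was lower (Cd209a, at means of 8.15 FPKM for f/f and 1.12 for d/d), while Zbtb46 and Clec9a overlapped between groups. B and plasma cell markers summed to 10.1 to 36.4 FPKM over the f/f and 55.2 to 158 over the d/d libraries, without overlap, with 1 of 3 tested (Cd79b, 2.65-fold) higher, and Jchain was at 19.1 for f/f and 94.9 FPKM for d/d (means; limma adjusted p = 0.0533). The part of these cells in the integrin values was not tested.

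The lymphocyte-type members showed no such separation. Itgal, the alpha subunit of the main lymphocyte adhesion receptor, was at 4.50, 2.26 and 2.06 FPKM across f/f libraries 1 to 3, against 3.71, 8.22 and 3.52 across d/d libraries 1 to 3. The groups overlapped through f/f library 1 (log2 change 0.61, limma adjusted p = 0.296). Itgb7, the mucosal homing subunit, ranged from 2.58 to 11.3 FPKM within d/d alone (log2 change 0.052, 95% interval from -1.07 to 1.17). Its partner Itgae was below the filter, at 0.742 and 0.917 FPKM. Itgad was at 0.150 and 0.0156 FPKM in f/f libraries 1 and 2 and was listed at 0 in the other 4 libraries.

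**Figure D5:**
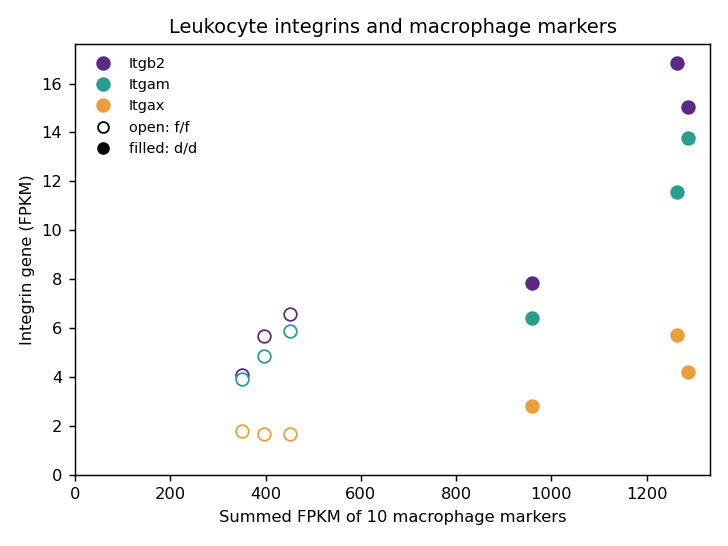
FPKM of Itgb2, Itgam and Itgax (y axis) against the summed FPKM of 10 macrophage markers (x axis) in each library, with open points for f/f and filled points for d/d. The f/f libraries lie at 351 to 452 on the x axis and the d/d libraries at 959 to 1287, and d/d library 3 is lowest of the d/d libraries on both axes.

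Other basement membrane genes changed in both directions. Of 17 tested, 3 rose (Col4a1, Col4a2 and Agrn) and 3 fell (Frem1, Col18a1 and Col4a4), 35.3% against 11% of all features. The median log2 change was -0.26, against -0.011 over all features. Col4a1, a chain of the common type IV collagen network, was at 97.6, 107 and 109 FPKM across f/f libraries 1 to 3, against 181, 197 and 201 across d/d libraries 1 to 3. All d/d values were well above all f/f values (1.85-fold, log2 change 0.88, SE 0.099, limma adjusted p = 0.00727). Agrn, the laminin-binding proteoglycan agrin, rose 1.74-fold. Col18a1, the basement membrane collagen that yields endostatin, fell 1.91-fold (limma adjusted p = 0.00825), and Frem1, of the Fraser complex that ties epithelium to its matrix, 3.63-fold. Col4a4, a chain of the tissue-restricted type IV network, fell 1.91-fold. Nid1, which bridges laminin to type IV collagen, had a mean FPKM of 65.03 ± 1.94 for f/f, against 45.1 ± 14.6 for d/d (n = 3 each, ± SD; limma adjusted p = 0.134). Those that rose numbered 1 (Col4a1) without f/f library 2, f/f library 3 or d/d library 3, and those that fell numbered 1 (Col18a1) without f/f library 2. Agrn also lost its call without d/d library 1, and Col4a2 without d/d library 2. Among the fits with a library left out, Col4a4 passed only without f/f library 1, and it lost its call without the filter. Nid1 passed as lower without d/d library 2.

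Receptors of laminin outside the integrins differed among themselves. Of 8 tested, Dag1, the dystroglycan that binds the alpha chains, rose 1.52-fold, from 70.4 ± 2.23 to 107 ± 8.33 FPKM (n = 3 each, ± SD; limma adjusted p = 0.0154). The sarcoglycans Sgcb (1.61-fold) and Sgce (1.502-fold), which sit beside dystroglycan in the membrane, fell. The 3 that passed were 37.5% of those tested, against 11% of all features, and the median log2 change of the list was -0.32. Dag1 did not pass without f/f library 2, f/f library 3, d/d library 1 or d/d library 2, and those that fell numbered 1 without d/d library 1 and 0 without f/f library 2, f/f library 3, d/d library 2 or d/d library 3. Against 11% and 29.6% of all features, hemidesmosome and tetraspanin partners had 0 of 7 passing with limma and 2 at an unadjusted p under 0.05. The most abundant of them were tetraspanin genes: Cd9 had a mean FPKM of 424 ± 35.1 for f/f, against 467 ± 87.4 for d/d (n = 3 each, ± SD), and Cd81 had a mean FPKM of 308 ± 18.9 for f/f, against 349 ± 26.5 for d/d (n = 3 each, ± SD). The hemidesmosome collagen Col17a1 and the basal keratins Krt5 and Krt14 were below the filter, with group means of at most 0.444 FPKM.

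Of 29 tested genes inside the cell that link integrins to actin, 3 rose (Fermt3, Bcar1 and Crk) and 1 fell (Zyx), 13.8% against 11% of all features, with a median log2 change of -0.044. Fermt3, the kindlin of blood cells that activates beta2 integrins, was at 4.42, 3.84 and 3.32 FPKM across f/f libraries 1 to 3, against 9.43, 9.52 and 5.73 across d/d libraries 1 to 3. The d/d libraries were all above the f/f libraries, and d/d library 3 was again the lowest d/d library (2.13-fold, limma adjusted p = 0.0435). Macrophages carry this gene too, and the part of their markers, given above, in its value was not tested. The adaptor Bcar1 rose 1.71-fold and its partner Crk 1.35-fold, and the focal adhesion protein gene Zyx fell 1.37-fold. Those that rose numbered 1 (Bcar1) without f/f library 1, f/f library 3, d/d library 1 or d/d library 2 and 0 without f/f library 2. Those that fell numbered 5 (Zyx, Fermt2, Ilk, Lims2 and Ptk2b) without f/f library 1 and 0 without any other single library. Without the filter Bcar1 alone passed, with libraries 1 of both groups left out 1 rose and 3 fell, and 3 fell when values were rescaled to protein-coding nuclear genes.

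Among 13 tested RGD-type ligands 3 rose and 1 fell, 30.8% against 11% of all features, with a median log2 change of 0.44. Fn1, fibronectin, was at 208, 218 and 168 FPKM across f/f libraries 1 to 3, against 102, 93.3 and 78.1 across d/d libraries 1 to 3. The groups did not overlap, with d/d below f/f (2.18-fold, log2 change -1.11, SE 0.15, limma adjusted p = 0.0102). Vwf, made by endothelium and platelets, rose 2.17-fold, the thrombospondin gene Thbs1 1.82-fold and Spp1, osteopontin, 13.7-fold, with Spp1 at 2.55, 1.32 and 1.43 FPKM across f/f libraries 1 to 3, against 39.8, 27.4 and 5.21 across d/d libraries 1 to 3. Fn1 kept its call without each library in turn. Spp1 kept its call in 1 of the 6 fits with a library left out, the one without d/d library 3, and lost it without the variance trend and without the filter. Those that rose numbered 5 without f/f library 1 (Ltbp3, Tgfb1, Tgfb3, Thbs1 and Vwf), 1 (Vwf) without f/f library 3, d/d library 1 or d/d library 2, and 0 without f/f library 2. Without the filter Vwf was the 1 ligand that rose, and with quantile normalization 5 rose. Of 8 tested counter-receptors of leukocyte integrins 2 rose and 0 fell, 25% against 11% of all features, with a median log2 change of 0.32. Vcam1, which binds the alpha4 integrins, was at 5.28, 2.32 and 4.32 FPKM across f/f libraries 1 to 3, against 14.1, 12.4 and 7.09 across d/d libraries 1 to 3. It was 2.82-fold higher in d/d (limma adjusted p = 0.0484), and Cdh1, E-cadherin, which binds the product of Itgae on lymphocytes, rose 1.37-fold. Vcam1 and Cdh1 both lost their calls without d/d library 3, where Icam1 was the 1 that passed, and 0 rose without f/f library 2, f/f library 3, d/d library 1 or d/d library 2. Those that fell numbered 2 (Jam2 and Thy1) without f/f library 1. Without the filter, without the variance trend or with rescaling to protein-coding nuclear genes 0 rose, and with quantile normalization Vcam1 alone rose.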

How the data were processed

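RNA of whole oviducts, extracted with TRIzol and made into TruSeq libraries per the labels' protocols, was sequenced in 6 libraries. The authors deposited 1 table per library with 1 value per Ensembl gene, read here as FPKM, an inference from Cufflinks 2.2.1, named per the submitters' processing notes, and from decimals whose totals differ. HISAT2 2.2.1 and the builds mm9 and mm10 are named there with no role. Not given in the sources used here are the strand setting, the filters and the gene annotation: reads of overlapping or antisense genes, or of near-identical copies, can be split or shared. Exons of Lama2 overlap those of the antisense gene Gm48084 (at most 0.0680 FPKM), and those of Lama1 and Itga6 overlap no other gene in GENCODE M21, which holds 99.5% of the identifiers and gave coordinates and classes.

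Fragments per library were inferred from the lowest step of FPKM times length less 265 nt (an offset picked by a scan) in single-transcript genes over 1500 nt with FPKM under 0.1, on which 91.6% to 95.2% of 304 to 395 genes lay within 1%. Other values gave no whole counts, so no count model was used. Values of 114 symbols held by several rows were added up. The filter was a mean of at least 1 FPKM over the libraries fitted (reapplied when libraries were left out, a choice settled after a first run). Values as log2(FPKM + 1) were tested with limma 3.58.1 in R 4.3.3 (variance trend, genotype as the only term, two-sided, Benjamini-Hochberg over all features). The fit was also run on simulated independent values, without the marker differences among these libraries, and no result here rests on that run. The labels do not say that replicates are separate animals, so each p-value reflects the spread among these libraries, possibly technical. Replicate numbers showed no shared pattern: same-numbered libraries' deviations from their group means correlated at -0.22, -0.058 and 0.0027. Differently numbered libraries ran from -0.28 to 0.28. This check cannot show whether same-numbered libraries were handled together. Alternatives were the pseudocount, the filter, 3 scalings (quantile normalization, protein-coding totals and the trimmed mean of M values, TMM, written in R), no variance trend, the replicate number as a block and libraries left out.

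The members, lists and tests were chosen with earlier results of these data known. Of the 37 genes, 1 is counted in the totals and its own values are not reported here. Named in full are members past the threshold and, of role groups with none, the 2 most abundant; of each pathway list, up to 4 past the threshold by size or the 2 most abundant. Members and list genes beyond that rule (among them Lama3, Lama4, Lama5, Itgb6, Col4a4, Nid1, the sequence motifs and the promoters shown) were chosen after their values were seen.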

Additional observations from a re-analysis of the deposited data

How the results depend on the processing

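Lama1 was lower under all 14 alternatives and past the threshold in each. Of the 446 log2 changes of single members under the alternatives, 409 kept direction and side of the threshold, mostly those of genes that passed in neither fit. The 8 that lost a call were all of Itga6 or Lama2. The number of members higher in d/d, 1, was 2 with a pseudocount of 0.1 or without the variance trend, 3 with quantile normalization, 0 with the replicate number as a block, 3 with libraries 1 of both groups left out (Itga6, Itgb6 and Lama5), and from 0 to 4 over the fits with 1 library left out. The number lower, 2, was 1 without the filter (Lama2 at adjusted p = 0.0510), 1 with the block, 4 with libraries 1 of both groups left out (Lama1, Lama2, Itgb3 and Lamc3), and from 1 to 4 with 1 library left out. The 1701 features past the threshold became 1107 without the filter, 276 with the block, and 308 to 1795 with 1 library left out. Fits with a library left out have 3 residual degrees of freedom in place of 4. With the block in limma, Itga6 (adjusted p = 0.0653) and Lama2 (0.0813) missed the threshold, and of the pathway lists' genes Col4a1, Vwf and Fn1 passed. The check of the replicate numbers found no shared pattern, which does not exclude handling in pairs. Near-zero log2 changes turned sign without reaching the threshold: Itgb8 at -0.0065 with a pseudocount of 0.1 and -0.022 when rescaled to protein-coding nuclear genes, and Itgb7 at -0.081 with libraries 1 of both groups left out. With 1 library left out the log2 change ran from -0.27 to 0.11 for Itga1, -0.29 to 0.072 for Itga4, -0.12 to 0.068 for Itgb1, -0.32 to 0.57 for Itgb7 and -0.16 to 0.13 for Itgb8. The causes were not tested. With 3 libraries a group, the 4 genes under the filter (Itga11, Itgad, Itgae and Lamb3) were not tested.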
